A study of Mus musculus with 12 samples.

Results

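The genes described here are 7 transcription factor genes tied to the choice of the conventional dendritic cell (cDC) fate: *Batf3*, *Batf*, *Batf2*, *Zbtb46*, *Zfp366*, *Nfil3* and *Zeb2*. They were selected by gene symbol. Each of the 7 was found in the tables of all 3 cell types, among 17445 rows for LMPPs, 16821 rows for CD115-CDPs and 16896 rows for BM pDCs.

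RNA-seq was carried out on sorted lymphoid-primed multipotent progenitors (LMPPs), CD115- common dendritic cell progenitors (CD115-CDPs) and bone marrow plasmacytoid dendritic cells (BM pDCs) of C57BL/6 mice, to ask what loss of the histone deacetylase HDAC3 changes on the way to pDCs. HDAC3-deficient cells came from *Hdac3* fl/fl CreERT2 mice and control cells from *Hdac3* fl/fl mice, with 2 libraries per genotype and cell type, 12 in all. Mice of both genotypes carried the floxed *Hdac3* alleles and received tamoxifen intraperitoneally for 5 days, and cells were sorted 7 days later. The Cre transgene is driven from the *Rosa26* locus, so deletion was not limited to dendritic cells and the cells around the sorted ones were targeted as well. Nothing states that the 2 libraries of a group came from separate mice, so each p value measures only the spread between these libraries, which may be technical.

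Dendritic cells fall into pDCs, which make type I interferon, and cDCs, of which cDC1s cross-present antigen and cDC2s prime CD4+ T cells. BATF3 is a bZIP factor that pairs with JUN proteins and binds with IRF8, and it keeps *Irf8* active in cells committed to cDC1s, a task its relatives BATF and BATF2 can take over in part. ZBTB46 marks cDCs and their committed precursors, and DC-SCRIPT, the product of *Zfp366*, favours cDC1s. NFIL3 lowers *Zeb2*, and ZEB2 lowers *Id2*, so that high NFIL3 and ID2 go with cDC1s and high ZEB2 with pDCs and cDC2s.

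Genes of surface proteins used to define LMPPs and BM pDCs were expressed in them. *Flt3* lay between 312.3 and 473.0 FPKM (fragments per kilobase of transcript, scaled to library size) in the LMPP libraries. It was not particular to them, at 352.2 and 310.25 FPKM in control CD115-CDPs. *Siglech* lay between 855.0 and 1951 FPKM in the BM pDC libraries. *Csf1r*, the gene of CD115, gave 64.7 and 21.5 FPKM in HDAC3-deficient and 139.3 and 95.3 FPKM in control CD115-CDPs, so the RNA was present in cells sorted as CD115-. *Hdac3* RNA was at 16.9 and 9.87 FPKM in HDAC3-deficient and 56.5 and 66.4 FPKM in control LMPPs, at 12.1 and 0.93 against 58.2 and 39.6 FPKM in CD115-CDPs, and at 15.6 and 15.9 against 38.9 and 37.8 FPKM in BM pDCs. The floxed segment is exon 3, and a transcript without it would still yield reads. HDAC3-deficient CD115-CDP library 2 stood apart, with 11288 genes above 0 against 13684 to 15173 in the other CD115-CDP libraries, and its correlation with the other HDAC3-deficient library was 0.871, against 0.977 to 0.996 between the libraries of every other pair. The members' tests and the counts and medians for CD115-CDPs are therefore also given without it, and the other values of this cell type are given by library.

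On GRCm38 (mm10), with strand and extent from the reference annotation, *Batf3* (gene ID 381319) lies at chr1:191098414-191108943 on the plus strand, *Batf* (53314) at chr12:85686720-85709087 on the plus strand and *Batf2* (74481) at chr19:6164397-6172476 on the plus strand. *Zbtb46* (72147) lies at chr2:181371009-181493262 on the minus strand, *Zfp366* (238803) at chr13:99184823-99247032 on the plus strand, *Nfil3* (18030) at chr13:52967209-52982878 on the minus strand and *Zeb2* (24136) at chr2:44983512-45117442 on the minus strand. The span of *Zbtb46* overlaps *Zgpat*, *Lime1*, *Abhd16b* and the pseudogene *Slc2a4rg-ps* on the other strand and *Gm22708* on its own strand. That of *Zeb2* overlaps *Zeb2os* on the other strand and *Mir5129* on its own. Whether any exons are shared was not examined, and the sources used here do not state whether the counting used strand. How well reads of these genes were kept apart from those of the overlapping genes is therefore not known.

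The start windows of *Batf3* and *Zbtb46* are shown because these genes moved together in CD115-CDPs and BM pDCs. Each window runs from 250 bases before to 50 bases after an annotated start (RefSeq, GRCm38.p6), 5′ to 3′ on the strand of the gene. The *Batf3* window is chr1:191098164-191098463 on the plus strand, and the *Zbtb46* window is chr2:181424339-181424638 on the minus strand, within the span of the gene. The table of windows held 5 of the 7 genes, all but *Zfp366* and *Batf2*. Capitals mark matches to the motifs searched.
Batf3: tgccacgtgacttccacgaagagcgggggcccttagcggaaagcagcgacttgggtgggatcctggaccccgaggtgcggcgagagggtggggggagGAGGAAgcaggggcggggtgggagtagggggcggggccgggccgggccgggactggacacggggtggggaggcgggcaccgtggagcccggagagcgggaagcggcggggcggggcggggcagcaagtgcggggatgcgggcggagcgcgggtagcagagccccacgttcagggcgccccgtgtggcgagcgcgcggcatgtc
Zbtb46: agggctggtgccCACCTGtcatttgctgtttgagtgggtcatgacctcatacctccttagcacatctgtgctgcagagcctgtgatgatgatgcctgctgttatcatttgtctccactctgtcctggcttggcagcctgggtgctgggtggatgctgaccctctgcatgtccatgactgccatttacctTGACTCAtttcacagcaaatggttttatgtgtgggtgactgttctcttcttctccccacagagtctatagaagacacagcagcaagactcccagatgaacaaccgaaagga

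Motifs were searched on both strands, namely GAGGAA (the purine-rich core bound by PU.1), TGANTCA (AP-1, bound by BATF and JUN pairs), the composite ETS-IRF element (bound by PU.1 with IRF4 or IRF8), CAGGTG (the E-box bound by ZEB and E proteins) and TTANNTAA (the NFIL3 type). The composite element can overlap GAGGAA by its GGAA. The *Batf3* window held a single match, GAGGAA at position −153 from the start, in a sequence of 75.7% G and C. The *Zbtb46* window, of 50.7% G and C, held TGACTCA at position −61 and an E-box read on the other strand, CACCTG, at position −238. No match to the 5 motifs lay in the windows of *Batf* and *Nfil3*. Each of the 4 windows of *Zeb2* held GAGGAA, a match that the overlapping windows 2 and 3 share, and the 4th held TGANTCA at positions −189 and −132 as well. Among 32851 mouse windows of this length, GAGGAA was present in 28.3%, TGANTCA in 7.8%, the composite element in 2.7%, CAGGTG in 20.2% and TTANNTAA in 6.0%, and a match describes letters only.

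The 7 genes differed widely in level. Among control cells, *Batf* was at 65.3 and 58.9 FPKM in LMPPs, 51.8 and 37.3 FPKM in CD115-CDPs and 13.02 and 14.1 FPKM in BM pDCs. The LMPP libraries lay above the CD115-CDP libraries, and those lay above the BM pDC libraries. *Zeb2* had the opposite order in controls, with 8.23 and 12.1 FPKM in LMPPs, 13.5 and 14.0 FPKM in CD115-CDPs and 44.8 and 43.7 FPKM in BM pDCs, and its LMPP and CD115-CDP means differed by less than the spread of the LMPP libraries. *Batf3*, *Zfp366*, *Zbtb46* and *Nfil3* each had their highest control level in CD115-CDPs. *Batf2*, a relative of BATF induced by interferon, exceeded 1 FPKM in control LMPPs alone. These levels carry no test, since each table was normalized separately and the LMPPs and CD115-CDPs were lysed in a buffer for small cell numbers while the pDCs were lysed in Trizol.

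**Figure D1:**
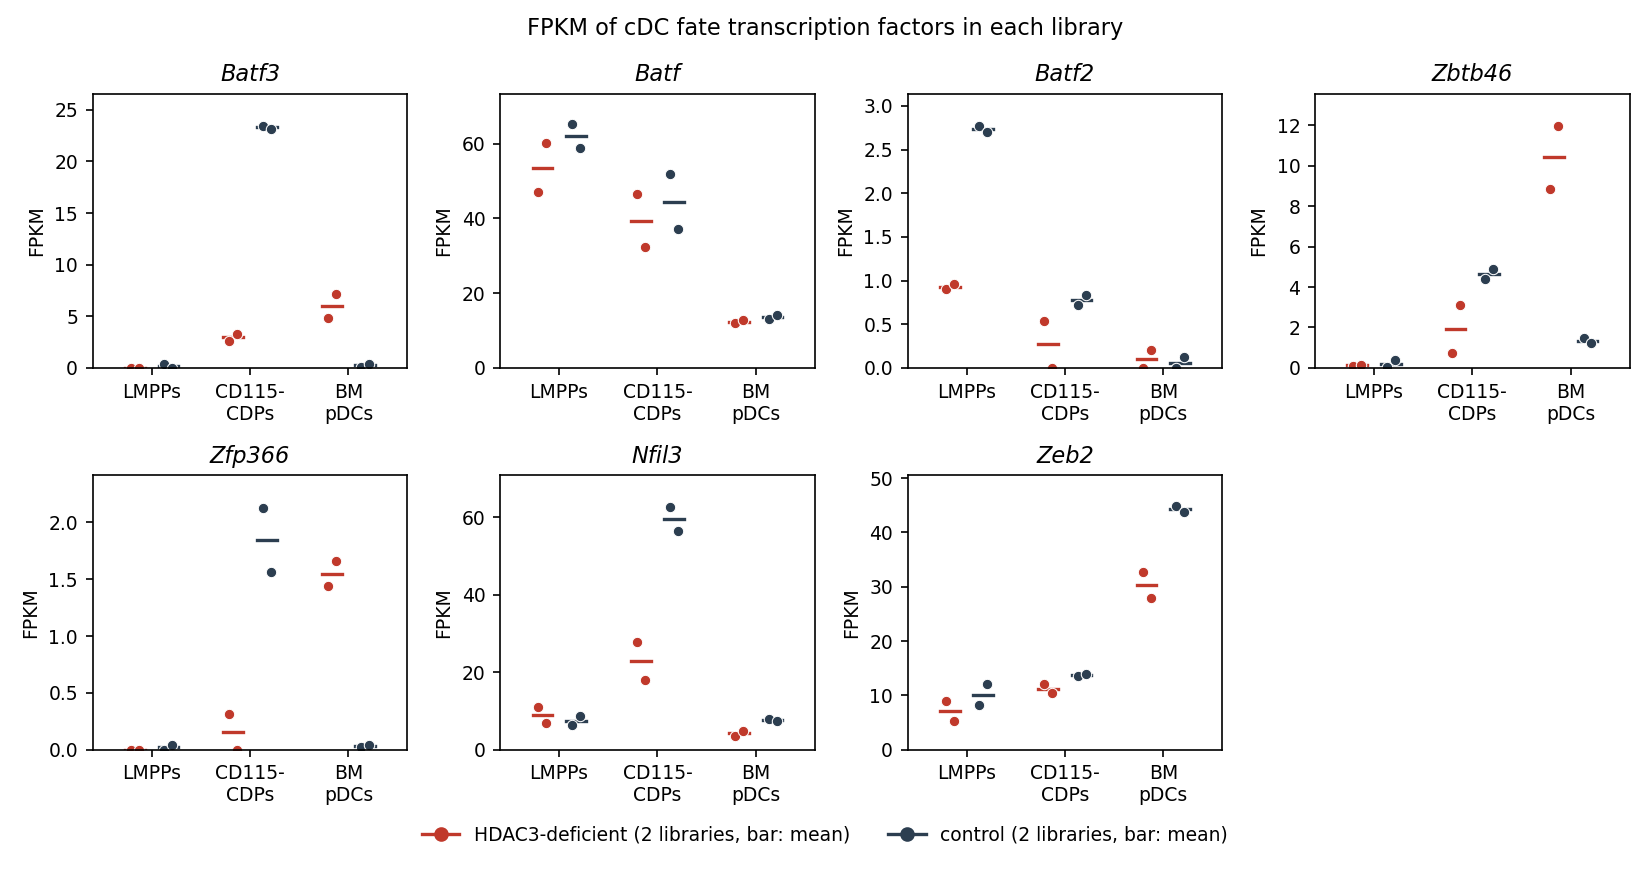
FPKM (y axis, linear, from 0, a separate scale for each gene) of each factor in LMPPs, CD115-CDPs and BM pDCs, with HDAC3-deficient libraries in red left of control libraries in dark blue, 2 points per group and a bar at their mean. *Batf3* is at 2.65 and 3.25 FPKM in HDAC3-deficient and 23.4 and 23.2 FPKM in control CD115-CDPs, and at 4.84 and 7.17 FPKM in HDAC3-deficient and 0.08 and 0.40 FPKM in control BM pDCs.

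*Batf3* was low in HDAC3-deficient CD115-CDPs and high in HDAC3-deficient BM pDCs. In CD115-CDPs it measured 2.65 and 3.25 FPKM in HDAC3-deficient cells, against 23.4 and 23.2 FPKM in controls. The groups did not overlap, the ratio of the means was 0.127, and *Batf3* stood at percentiles 46 and 49.6 of all genes in the HDAC3-deficient libraries, against 76.3 and 76.1 in the controls. The log2 change of −2.79 (SE 0.37) missed the threshold (limma on log2(FPKM + 0.5), adjusted p = 0.227), and no gene of this cell type passed it. It was −2.92 without HDAC3-deficient library 2 (adjusted p = 1.14e-08) and −2.67 without HDAC3-deficient library 1 (adjusted p = 5.75e-08), where the remaining library is assumed to vary like the controls. Leaving out control library 1 gave −2.78 and leaving out control library 2 gave −2.80, each with an adjusted p of 1, and those fits gave an adjusted p of 1 for all 6 members tested in CD115-CDPs.

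In BM pDCs the order of the groups turned round. *Batf3* had 61 and 91 reads in HDAC3-deficient pDCs (4.84 and 7.17 FPKM), against 1 and 5 reads in control pDCs (0.08 and 0.40 FPKM). Every HDAC3-deficient library lay above both controls. Scaled to library totals, the summed reads had a ratio of 25.1, with an exact 95% interval of 11.3 to 69.5 that covers counting error only. *Batf3* rose by 4.73 on the log2 scale (SE 0.55; edgeR quasi-likelihood test, adjusted p = 6.1e-04), and this fitted value depends on the prior count because the controls hold so few reads. It ranged between 4.01 and 6.20 with 1 library left out, and on the log2(FPKM + 0.5) scale, where limma also called it, the change was 3.15. The gene entered this test only through the HDAC3-deficient libraries. In LMPPs, *Batf3* had a listed value of 0 in each HDAC3-deficient library and 0.35 and 0 FPKM in the controls, and it was not tested.

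*Batf*, the family member with the highest level in every library, showed no called change. In LMPPs it was at 47.0 and 60.1 FPKM in HDAC3-deficient cells, against 65.3 and 58.9 FPKM in controls, and the libraries overlapped (log2 change −0.22, SE 0.17; limma, adjusted p = 0.36). In CD115-CDPs it was at 46.6 and 32.2 FPKM in HDAC3-deficient cells, against 51.8 and 37.3 FPKM in controls, again with overlap (log2 change −0.18, SE 0.33; limma, adjusted p = 0.871), and the change was 0.09 without HDAC3-deficient library 2 (adjusted p = 0.856). BM pDCs had 194 and 207 *Batf* reads when HDAC3-deficient, against 211 and 226 reads in controls. Both HDAC3-deficient pDC libraries lay below both controls by FPKM, at 11.98 and 12.7 against 13.02 and 14.1 FPKM, but with TMM factors the log2 change was −0.002 (SE 0.13; edgeR, adjusted p = 0.992). A p that misses the threshold does not show that *Batf* was unaffected.

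*Batf2* was the member called in LMPPs. It was at 0.90 and 0.96 FPKM in HDAC3-deficient LMPPs, against 2.77 and 2.70 FPKM in controls, without overlap. It fell by 1.18 on the log2 scale (SE 0.30; limma, adjusted p = 0.012), and it entered the test only through the control libraries. Leaving out control library 1 or 2 ended the call (adjusted p = 0.0545 and 0.0578), as did the fit with no filter on low values (adjusted p = 0.0687) and that with quantile normalization (log2 change −0.67, adjusted p = 0.122). In CD115-CDPs *Batf2* was listed at 0.54 and 0 FPKM in HDAC3-deficient cells, against 0.72 and 0.84 FPKM in controls. In BM pDCs it had 0 and 7 reads in HDAC3-deficient cells, against 0 and 3 reads in controls, and a difference was not detectable at this depth, since a count of 0 allows up to 3 reads in a library.

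The share of *Batf3* in the summed FPKM of *Batf*, *Batf2* and *Batf3* compares the family members within a library, per length of transcript and free of the scaling between libraries. In CD115-CDPs the share was 5.32% and 9.16% in HDAC3-deficient libraries, against 30.9% and 37.8% in controls. In BM pDCs it was 28.8% and 35.7% in HDAC3-deficient libraries, against 0.61% and 2.73% in controls. HDAC3-deficient pDCs thus had *Batf3* shares close in size to those of control CD115-CDPs, a comparison across tables that carries no test. The levels were not alike, since both genes were lower in those pDCs. *Batf3* was at 4.84 and 7.17 FPKM there, against 23.4 and 23.2 FPKM in control CD115-CDPs. *Batf* was at 11.98 and 12.7 FPKM, against 51.8 and 37.3 FPKM. LMPPs expressed the family almost wholly as *Batf*, at 98.1% and 98.4% in HDAC3-deficient and 95.4% and 95.6% in control libraries.

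**Figure D2:**
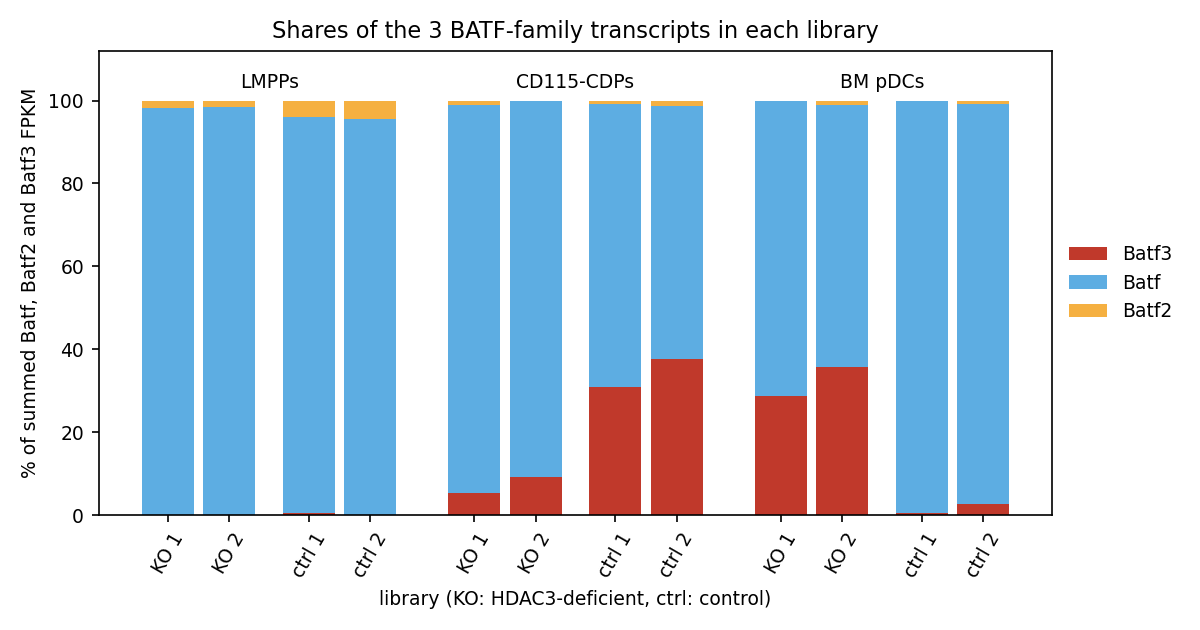
Share of *Batf3* (red), *Batf* (blue) and *Batf2* (orange) in the summed FPKM of the 3 genes (y axis, percent), as stacked bars for each library, HDAC3-deficient (KO) left of control (ctrl) within each cell type. *Batf3* takes 5.32% and 9.16% in HDAC3-deficient and 30.9% and 37.8% in control CD115-CDPs, and 28.8% and 35.7% in HDAC3-deficient and 0.61% and 2.73% in control BM pDCs.

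*Zbtb46* and *Zfp366* had the same 2 directions as *Batf3*. *Zbtb46* was at 0.74 and 3.11 FPKM in HDAC3-deficient CD115-CDPs, against 4.4 and 4.88 FPKM in controls. The HDAC3-deficient libraries lay below both controls but far from each other, and the log2 change of −1.28 (SE 0.67) missed the threshold (limma, adjusted p = 0.60). The size turned on which HDAC3-deficient library was kept: the change was −2.05 without library 2 (adjusted p = 0.00256) and −0.51 without library 1 (adjusted p = 0.298).

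In BM pDCs *Zbtb46* had 553.1 and 776.4 expected reads in HDAC3-deficient cells, against 75.7 and 57.7 in controls (8.87 and 11.97 against 1.46 and 1.23 FPKM). No control library came near either HDAC3-deficient library. *Zbtb46* rose by 3.43 on the log2 scale (SE 0.23; edgeR, adjusted p = 6.64e-05), and the ratio of summed reads was 9.90 (exact 95% interval 8.28 to 11.9). In LMPPs it was at 0.11 and 0.16 FPKM in HDAC3-deficient cells, against 0.03 and 0.37 FPKM in controls, below the level needed for a test.

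The ratio of mean FPKM for *Zbtb46* in BM pDCs was 7.75, smaller than the ratio of reads, because the 2 deposited values imply a different mean transcript length in each genotype. Expected reads divided by FPKM gave an effective length of 3.40 and 3.51 kb in HDAC3-deficient libraries, against 2.82 and 2.59 kb in controls. Among 10075 genes with at least 1 FPKM in every BM pDC library, 12 genes, or 0.12%, *Zbtb46* among them, had a log2 difference in this length at least as large as the 0.35 of *Zbtb46*, and the median over all was 0. *Zeb2* moved the other way, at 6.28 and 6.26 kb in HDAC3-deficient against 6.66 and 6.75 kb in control libraries. *Batf* was at 0.88 kb in all 4. These lengths are set by how the authors' program divided reads among transcripts, carry no test, and do not name the transcripts.

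*Zfp366* was low throughout, at most 2.13 FPKM in any library. CD115-CDPs had 0.31 and 0 FPKM in HDAC3-deficient libraries, against 2.13 and 1.56 FPKM in controls. The groups did not overlap, and the log2 change of −1.87 (SE 0.67) missed the threshold (limma, adjusted p = 0.513). The gene entered that test only through the controls, and the change was −1.52 without HDAC3-deficient library 2, the library in which it was listed at 0 (adjusted p = 0.094), and −2.22 without HDAC3-deficient library 1 (adjusted p = 0.00287).

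In BM pDCs *Zfp366* had 73 and 85 reads in HDAC3-deficient cells, against 1 and 2 reads in controls (1.44 and 1.66 against 0.02 and 0.04 FPKM). Control pDCs were thus close to the limit of detection. The ratio of summed reads was 52.2, with an exact 95% interval of 17.5 to 256 that reflects the 3 control reads. The fitted rise was 5.72 on the log2 scale (SE 0.44; edgeR, adjusted p = 1.12e-04), and it was 1.95 on the log2(FPKM + 0.5) scale, which pulls low values together. The gene entered this test only through the HDAC3-deficient libraries. Control LMPPs listed *Zfp366* at 0 and 0.04 FPKM and HDAC3-deficient LMPPs at 0 in both libraries.

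The rise of *Batf3*, *Zbtb46* and *Zfp366* in BM pDCs is not independent evidence of a direction, since the study itself singled these genes out on the same libraries. For BM pDCs the study also reports qRT-PCR of changed genes, higher histone acetylation at these loci and HDAC3 binding there. None of that was analysed here. That they lay below controls in CD115-CDPs and above controls in BM pDCs is a description of both comparisons, and the difference between them was not tested. In bulk RNA, fewer cells of a type and less RNA per cell cannot be told apart.

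*Nfil3* and *Zeb2* form the opposed pair upstream of *Id2*. In CD115-CDPs *Nfil3* was at 27.8 and 18.1 FPKM in HDAC3-deficient cells, against 62.7 and 56.4 FPKM in controls. The groups were well separated, with a ratio of means of 0.385. The log2 change of −1.39 (SE 0.32) missed the threshold (limma, adjusted p = 0.39), and it was −1.08 without HDAC3-deficient library 2 (adjusted p = 9.02e-04) and −1.69 without HDAC3-deficient library 1 (adjusted p = 1.15e-06), against −1.31 and −1.46 without control library 1 or 2 (adjusted p = 1 for each).

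In BM pDCs *Nfil3* had 133 and 184 reads in HDAC3-deficient cells, against 294 and 266 reads in controls, without overlap. It fell by 0.70 on the log2 scale (SE 0.18; edgeR, adjusted p = 0.0186), with a ratio of summed reads of 0.561 (exact 95% interval 0.487 to 0.645). The call was lost when control library 1 (adjusted p = 0.115) or control library 2 (adjusted p = 0.0642) was left out. LMPPs had 10.9 and 6.83 FPKM in HDAC3-deficient cells, against 6.33 and 8.68 FPKM in controls. These libraries interleaved, and the log2 change was 0.21 (SE 0.26; limma, adjusted p = 0.583).

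*Zeb2* had the smallest log2 change of the members called in BM pDCs. BM pDCs had 3763 and 3227 *Zeb2* reads when HDAC3-deficient, against 5481 and 5344 reads in controls (32.7 and 27.9 against 44.8 and 43.7 FPKM). It fell by 0.51 on the log2 scale (SE 0.094; edgeR, adjusted p = 0.0044), and this call too was lost without control library 1 (adjusted p = 0.0614) or control library 2 (adjusted p = 0.053). *Zeb2* nevertheless stayed at percentiles 85.6 and 83.6 of all genes in HDAC3-deficient pDCs, against 88.7 and 88.4 in controls. In CD115-CDPs it was at 12.03 and 10.4 FPKM in HDAC3-deficient cells, against 13.5 and 14.0 FPKM in controls (log2 change −0.29, SE 0.34; limma, adjusted p = 0.788), and the change was −0.19 without HDAC3-deficient library 2 (adjusted p = 0.729). In LMPPs it was at 8.88 and 5.25 FPKM in HDAC3-deficient cells, against 8.23 and 12.1 FPKM in controls, with overlap (log2 change −0.51, SE 0.27; limma, adjusted p = 0.182). Without HDAC3-deficient library 1 the LMPP change was −0.87 (adjusted p = 0.0125).

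*Id2*, an inhibitor of E proteins that cDC1s need, was low and high in the same groups as *Batf3*. It was at 40.8 and 31.7 FPKM in HDAC3-deficient CD115-CDPs, against 104.1 and 121.3 FPKM in controls (log2 change −1.63, SE 0.28; limma, adjusted p = 0.26). Leaving out HDAC3-deficient library 2 gave −1.45. In BM pDCs it was at 59.6 and 102.7 FPKM in HDAC3-deficient cells, against 7.54 and 7.77 FPKM in controls, and it rose by 3.55 on the log2 scale (SE 0.28; edgeR, adjusted p = 1.32e-04). In LMPPs it was at 8.89 and 5.44 FPKM in HDAC3-deficient cells, against 8.49 and 7.38 FPKM in controls, with overlap.

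Ratios of FPKM + 0.5 within a library set these genes against each other. The added 0.5 shrinks a ratio where a gene is low. The log2 ratio of *Nfil3* to *Zeb2* was 0.29 and 0.35 in HDAC3-deficient LMPPs, against −0.35 and −0.45 in controls, so the ratio separated the genotypes in LMPPs although neither gene did. In CD115-CDPs this log2 ratio was 1.17 and 0.78 in HDAC3-deficient libraries, against 2.17 and 1.98 in controls. In BM pDCs it was −3.02 and −2.39 in HDAC3-deficient libraries, against −2.44 and −2.49 in controls, with overlap. The separation in LMPPs and that in CD115-CDPs ran in opposite directions. With 2 libraries per group such separation arises easily, and its share over other gene pairs was not computed.

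The log2 ratio of *Id2* to *Zeb2* in BM pDCs was 0.86 and 1.86 in HDAC3-deficient libraries, against −2.50 and −2.42 in controls. *Id2* thus outweighed *Zeb2* per length of transcript in HDAC3-deficient pDCs, and *Zeb2* outweighed *Id2* in control pDCs. In CD115-CDPs it was 1.72 and 1.57 in HDAC3-deficient libraries, against 2.90 and 3.08 in controls. The log2 ratio of *Batf3* to *Batf* was −3.90 and −3.13 in HDAC3-deficient CD115-CDPs, against −1.13 and −0.68 in controls, and −1.23 and −0.78 in HDAC3-deficient BM pDCs, against −4.54 and −4.02 in controls. None of these ratios was tested.

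**Figure D3:**
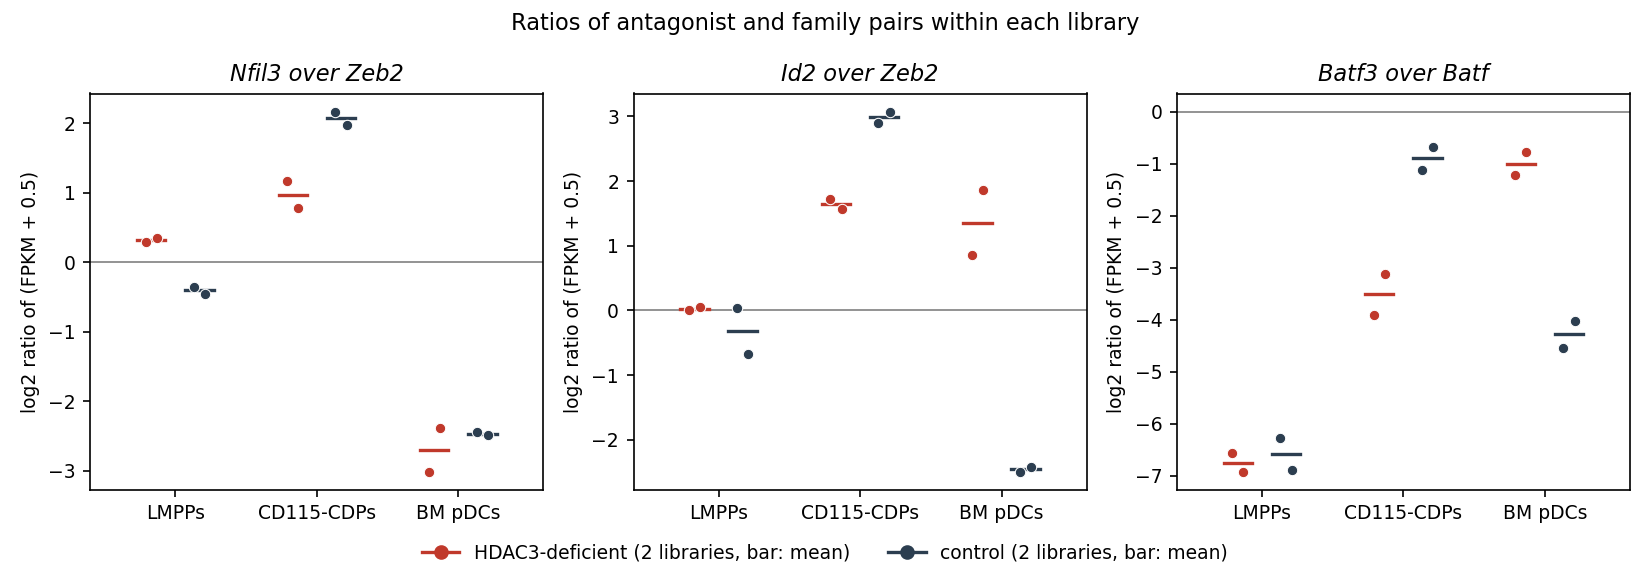
Log2 ratio of (FPKM + 0.5) within each library (y axis) for *Nfil3* over *Zeb2*, *Id2* over *Zeb2* and *Batf3* over *Batf*, with HDAC3-deficient libraries in red left of controls in dark blue, 2 points per group and a bar at their mean. The *Id2* to *Zeb2* ratio is 0.86 and 1.86 in HDAC3-deficient and −2.50 and −2.42 in control BM pDCs, and the *Nfil3* to *Zeb2* ratio separates the genotypes in LMPPs and CD115-CDPs but not in BM pDCs.

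Of the 7 genes, 4 were tested in LMPPs and 6 each in CD115-CDPs and BM pDCs, and the shares given beside the counts are over tested genes. LMPPs had 0 higher and 1 lower call, with 4.31% of all 11146 tested genes called higher and 18.8% called lower. CD115-CDPs had 0 calls among the members, and 0% of 10832 tested genes were called higher and 0% lower by limma. At an unadjusted limma p under 0.05, 332 genes were higher and 644 lower there, and *Batf3*, *Nfil3* and *Zfp366* were among the lower ones. In CD115-CDPs, 6 of the 7 members had each HDAC3-deficient value under each control value, all but *Batf*, and 0 had each above, while 28.4% of tested genes lay below in this way and 15.2% above. The 6 include *Batf2*, which was not tested. With HDAC3-deficient library 2 left out, 6 of the 7 had the remaining HDAC3-deficient library below both control libraries, against 46.3% of tested genes below and 34.2% above. BM pDCs had 3 higher and 2 lower calls among the members, 2 of the higher ones tested only through the libraries in which they are high, with 21.6% of 12716 tested genes called higher and 22.5% called lower. The lower calls in LMPPs and in BM pDCs lie near their background, so they are no result about these genes as a group.

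**Figure D4:**
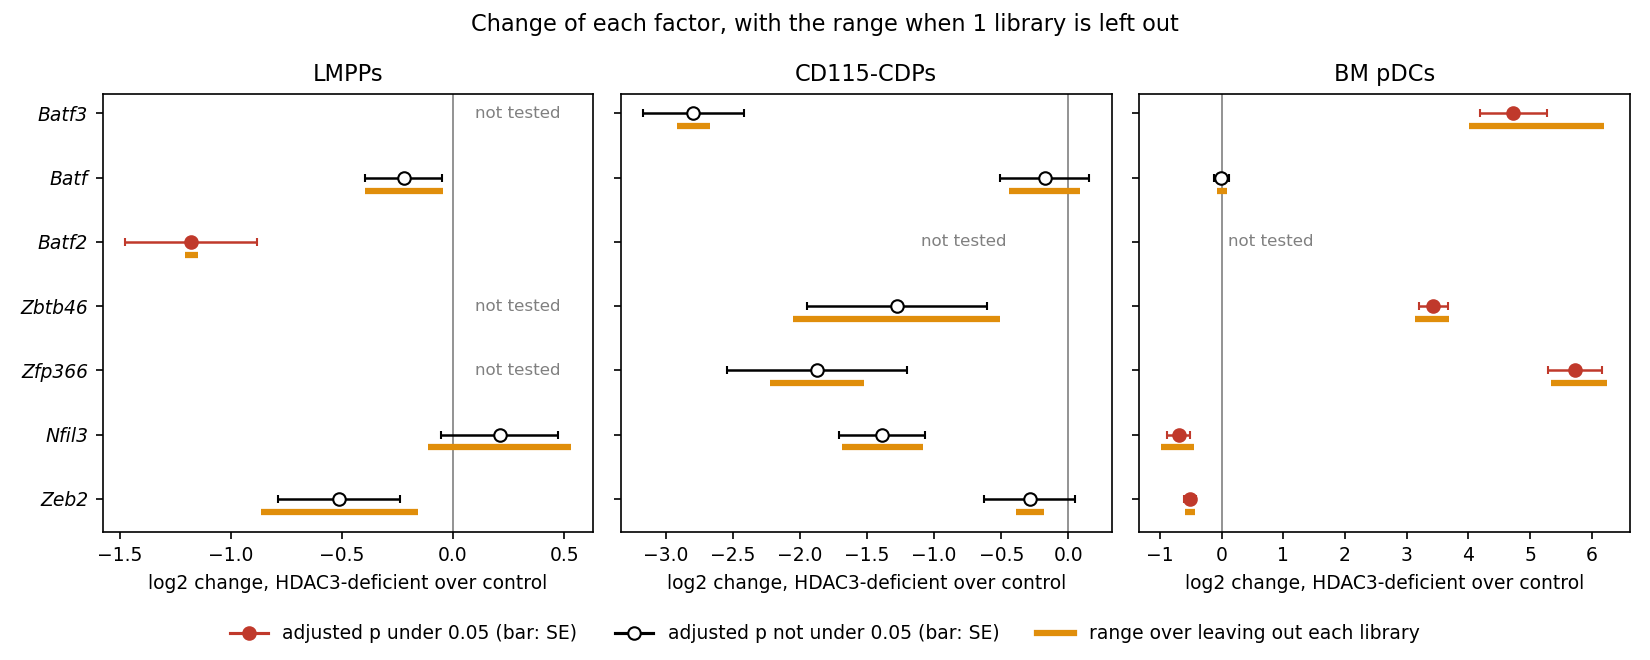
Log2 change of each factor, HDAC3-deficient over control (x axis, a separate scale for each cell type), with its SE, filled where the adjusted p is under 0.05, and in orange the lowest to highest value when 1 library is left out. LMPPs and CD115-CDPs are on the log2(FPKM + 0.5) scale of limma and BM pDCs on the read scale of edgeR. *Batf3* is at −2.79 in CD115-CDPs and 4.73 in BM pDCs, and *Nfil3* in LMPPs and *Batf* in CD115-CDPs and BM pDCs have orange ranges that cross 0.

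The median log2 change over all tested genes was −0.24 in LMPPs, −0.16 in CD115-CDPs and −0.01 in BM pDCs, and changes in the progenitors are read against that shift. Rescaling by the median ratio turned the LMPP calls over all genes from 480 higher and 2096 lower into 863 higher and 999 lower, with *Batf2* called lower in either case. In BM pDCs, scaling by library totals alone gave 2080 higher and 3847 lower genes in place of 2753 and 2858, and it left the same 3 member genes higher and the same 2 lower.

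Of 12 other regulators on the cDC side, 9 were tested in LMPPs, where 1 rose and 2 fell (median log2 change −0.17, against −0.24 over all genes). Counts for this and the following lists are read against the shares of all tested genes. These were 4.31% called higher and 18.8% lower in LMPPs, and 21.6% higher and 22.5% lower in BM pDCs. A count near its share is no result about a list. *Irf8*, the partner of BATF3, rose, with 164.9 and 136.3 FPKM in HDAC3-deficient LMPPs, against 81.5 and 108.6 FPKM in controls (log2 change 0.67, SE 0.18; limma, adjusted p = 0.0174). *Klf4* fell by 2.11 on the log2 scale (SE 0.31; limma, adjusted p = 3.52e-04). *Relb* fell by 0.96 (SE 0.31; limma, adjusted p = 0.0389).

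In BM pDCs all 12 of these regulators were tested, and 5 rose and 2 fell (median log2 change 0.12, against −0.01 over all genes). Besides *Id2*, *Notch2*, a receptor needed for a branch of cDC2s, was at 53.0 and 54.0 FPKM in HDAC3-deficient pDCs, against 24.2 and 21.9 FPKM in controls (log2 change 1.35, SE 0.098; edgeR, adjusted p = 8.97e-05). *Bcl6* rose by 2.11 (SE 0.17; edgeR, adjusted p = 1.33e-04), and *Rbpj*, which acts below Notch receptors, rose by 0.80 (SE 0.09; edgeR, adjusted p = 5.37e-04). By FPKM, *Klf4* was lower, at 59.3 and 62.1 in HDAC3-deficient pDCs, against 104.8 and 89.2 in controls. *Irf8* was at 1639 and 1677 FPKM in HDAC3-deficient pDCs, against 1952 and 1853 FPKM in controls. On the log2(FPKM + 0.5) scale the median change over all BM pDC genes was −0.15. In CD115-CDPs, where 9 of the 12 were tested and none was called by limma, *Irf8* was at 863.5 and 318.0 FPKM in HDAC3-deficient cells, against 1696 and 1331 FPKM in controls. The median log2 change of these regulators was −0.60 there, against −0.16 over all genes, and −0.24 without HDAC3-deficient library 2, where *Irf8* differed by −0.80.

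Of 6 regulators on the pDC side, 5 were tested in LMPPs, where 0 rose and 2 fell (median log2 change −0.46), and 6 were tested in BM pDCs, where 1 rose and 2 fell (median −0.21). In CD115-CDPs limma called none of the 6, with a median of −1.002, against −0.16 over all genes, and −0.90 without HDAC3-deficient library 2. *Tcf4*, the E protein that pDCs need, was at 176.7 and 143.1 FPKM in HDAC3-deficient pDCs, against 241.2 and 260.6 FPKM in controls (log2 change −0.62, SE 0.13; edgeR, adjusted p = 0.00793). *Cbfa2t3*, a corepressor, rose by 0.83 (SE 0.11; edgeR, adjusted p = 0.00122). *Tcf4* also fell in LMPPs, by 0.72 (SE 0.17; limma, adjusted p = 0.00705).

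Of 9 AP-1 genes whose products can pair with BATF proteins, 7 were tested in LMPPs and 5 fell, with a median log2 change of −1.22 against −0.24 over all genes. *Jun* was at 80.0 and 52.1 FPKM in HDAC3-deficient LMPPs, against 598.3 and 686.1 FPKM in controls (log2 change −3.30, SE 0.20; limma, adjusted p = 2.4e-07). *Fos* fell by 2.30 there (SE 0.27; limma, adjusted p = 6.46e-05). In BM pDCs 9 were tested, 4 rose and 2 fell (median log2 change 0.20), and *Junb*, which pairs with BATF3, was at 282.3 and 339.9 FPKM in HDAC3-deficient pDCs, against 172.0 and 163.5 FPKM in controls (log2 change 1.03, SE 0.13; edgeR, adjusted p = 7.67e-04). In CD115-CDPs limma called none of the 9, with a median log2 change of −0.16, equal to that over all genes, and 0.03 without HDAC3-deficient library 2.

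Markers of cDCs in BM pDCs moved in both directions beside *Batf3*, *Zbtb46* and *Zfp366*. Among all genes tested there, 21.6% were called higher and 22.5% lower. Of 12 cDC1 genes, 11 were tested, 4 rose and 3 fell (median log2 change 0.42), and their summed level was 337.1 and 329.8 FPKM in HDAC3-deficient pDCs, against 177.7 and 181.3 FPKM in controls. *Clec9a* alone gave 207.5 and 196.3 FPKM in HDAC3-deficient pDCs, against 46.3 and 51.2 FPKM in controls. *Cadm1*, which encodes an adhesion molecule of cDC1s, went the other way, at 1.17 and 0.36 FPKM in HDAC3-deficient pDCs, against 9.86 and 8.52 FPKM in controls (log2 change −3.47, SE 0.35; edgeR, adjusted p = 3.72e-04). *Xcr1*, the chemokine receptor that defines cDC1s, was at 0.80 and 0.74 FPKM in HDAC3-deficient pDCs, against 0.85 and 0.77 FPKM in controls, and *Itgae*, which encodes CD103, stayed below 0.5 FPKM in all 4 libraries.

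Of 20 core cDC genes, 19 were tested in BM pDCs, where 9 rose and 3 fell (median log2 change 0.36), and the summed level was 763.9 and 771.6 FPKM in HDAC3-deficient cells, against 847.1 and 856.8 FPKM in controls. *Ccr7*, the receptor of migrating cDCs, was at 16.3 and 18.3 FPKM in HDAC3-deficient pDCs, against 2.01 and 1.54 FPKM in controls (log2 change 3.43, SE 0.16; edgeR, adjusted p = 3.29e-05). *Adam19* was lower, at 26.4 and 20.3 FPKM in HDAC3-deficient pDCs, against 74.0 and 77.05 FPKM in controls. *Kmo* was at 203.4 and 180.5 FPKM in HDAC3-deficient pDCs, against 257.3 and 284.15 FPKM in controls. Of 8 cDC2 genes, 7 were tested, 2 rose and 4 fell (median −0.91), with a summed level of 362.6 and 295.2 FPKM in HDAC3-deficient pDCs, against 594.8 and 623.8 FPKM in controls. *Itgam*, which encodes CD11b, rose by 3.98 (SE 0.21; edgeR, adjusted p = 3.73e-05), and *Clec10a* fell by 2.02 (SE 0.088; edgeR, adjusted p = 3.29e-05).

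Of 12 pDC genes, 0 rose and 10 fell in BM pDCs (median −0.92), and their summed level was 4188 and 3708 FPKM in HDAC3-deficient pDCs, against 9374 and 9879 FPKM in controls. The pDC identity genes were thus lower but still the highest of the marker groups. Monocyte and macrophage genes summed to 118.5 and 138.8 FPKM in HDAC3-deficient pDCs, against 56.6 and 50.5 FPKM in controls, with 2 of 6 tested genes higher and 2 lower. Most of this sum was *Ccr2*, at 97.7 and 114.5 FPKM in HDAC3-deficient pDCs, against 37.8 and 34.55 FPKM in controls. The lower genes were *Cd14*, at 0.79 and 0.62 against 1.91 and 1.90 FPKM, and *Adgre1*, at 0.37 and 0.32 against 0.89 and 0.92 FPKM. B cell genes summed to 20.4 and 29.3 FPKM in HDAC3-deficient pDCs, against 41.3 and 43.6 FPKM in controls. The part of other cells in the change of *Batf3*, *Zbtb46* and *Zfp366* was not tested.

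In CD115-CDPs, cDC1, core cDC and pDC genes had lower sums in HDAC3-deficient cells beside *Batf3* and *Nfil3*, cDC2 genes overlapped, and limma called none of their genes. The 12 cDC1 genes summed to 99.4 and 98.3 FPKM in HDAC3-deficient cells, against 151.6 and 132.1 FPKM in controls, and the 12 pDC genes to 446.1 and 235.1 FPKM, against 1994 and 1463 FPKM. *Itgae* and *Cd8a* had a listed value of 0 in each HDAC3-deficient library. Controls had only 0.13 and 0.25 FPKM of *Itgae* and 0.89 and 0.50 FPKM of *Cd8a*, so both were too low for a test. *Xcr1* was below 0.6 FPKM in all 4. The 20 core cDC genes summed to 642.0 and 507.0 FPKM in HDAC3-deficient cells, against 879.8 and 776.4 FPKM in controls, while the 8 cDC2 genes summed to 116.8 and 85.2 FPKM in HDAC3-deficient cells, against 135.6 and 97.3 FPKM in controls. Against the lower core cDC sum, *Cd80* was at 2.13 and 9.55 FPKM in HDAC3-deficient cells and 0.56 and 0 FPKM in controls. *Cd86* was likewise at 6.68 and 22.53 FPKM, against 4.34 FPKM in each control. Among the cDC2 genes, *Ltb* was at 41.9 and 41.1 FPKM in HDAC3-deficient cells, against 9.35 and 7.74 FPKM in controls. The median log2 differences were −0.91 for cDC1, −0.35 for core cDC, −0.55 for cDC2 and −1.59 for pDC genes, and −1.09, −0.68, −0.27 and −1.25 without HDAC3-deficient library 2, where the median over all genes was −0.08. Monocyte and macrophage genes overlapped at 350.3 and 378.6 FPKM, against 385.0 and 346.0 FPKM. T and NK cell genes went the other way at 282.1 and 402.4 FPKM, against 48.6 and 66.3 FPKM, nearly all of it *Nkg7*.

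In LMPPs, neutrophil genes summed to 46.6 and 16.0 FPKM in HDAC3-deficient cells, against 613.2 and 424.2 FPKM in controls beside the lower *Batf2*, and erythroid genes to 66.1 and 201.1 FPKM, against 8811 and 132.0 FPKM, the 8811 belonging to control library 1. Without control library 1, which held the erythroid sum of 8811 FPKM, *Batf2* differed by −1.16. The control library kept in that fit still had the neutrophil sum of 424.2 FPKM, so the fit does not address neutrophil RNA. The part of neutrophil or erythroid cells in the *Batf2* result was not tested.

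Over the 12 libraries, *Batf3* and *Zfp366* varied most alike among the members (Pearson r = 0.89 of log2(FPKM + 0.5)), followed by *Zbtb46* and *Zfp366* and by *Batf* and *Batf2* (r = 0.82 each) and then *Batf3* and *Zbtb46* (r = 0.80), while *Batf* and *Zeb2* varied oppositely (r = −0.92). These 12 points share cell type and genotype and lie in clusters, so the values only describe the pattern. Among 11559 genes of the 3 tables, the pattern most like that of *Batf3* was that of *Mxd3* and of *Aif1* (r = 0.98 each). For *Zbtb46* it was *Ccr6* (r = 0.97) and *Adgrg5* (r = 0.95), and for *Zfp366* it was *Anxa6* and *Gpr15* (r = 0.95 each). *Nfil3* varied most like *Ms4a6c* and *Togaram1* (r = 0.97 each). For *Zeb2* the nearest gene was *Pdpk1* (r = 0.99), for *Batf* they were *Tmem222* and *Spout1* (r = 0.99 each), and for *Batf2* they were *Rasd1* (r = 0.99) and *Emcn* (r = 0.98). With Spearman's measure, *Aif1* came first for *Batf3*, and none of the other genes named here came first for its member.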

How the data were processed

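The tables the authors deposited hold FPKM for LMPPs and CD115-CDPs, and both an expected count and FPKM for BM pDCs, by gene and library. Bowtie2, RSEM and mm10 are named in the submitters' processing notes. Versions, and which tool did what, are not stated there. Group means and TPM (10 columns) were not used, and CUT&Tag data were not analysed here. Genotypes were taken from the labels. CD115-CDP rows were named through the gene IDs of the BM pDC table. The members and lists were chosen with earlier results of these data known.

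LMPPs and CD115-CDPs were compared as log2(FPKM + 0.5) with limma 3.58.1 (trend) in R 4.3.3, after leaving out genes that reached 1 FPKM in fewer than 2 of 4 libraries. This scale understates the change of low genes. Rounded expected counts of BM pDCs were compared with edgeR 4.0.16 (filterByExpr, TMM, glmQLFTest), and the SE of a log2 change was taken from its F statistic. Tests were two-sided with Benjamini-Hochberg adjustment across the genes of a fit. Genes with adjusted p under 0.05 are called. Expected counts summed to 18117748 to 18462220 per BM pDC library. The low FPKM values gave no whole-read step, so the depth of the other libraries is unknown. Named genes were the 7 members, *Hdac3*, up to 4 genes of smallest p per list of regulators, partners or cDC genes, and the 2 most similar patterns per member, of which 1 is not reported here. *Id2*, *Irf8* in CD115-CDPs and BM pDCs, *Klf4* in BM pDCs and the marker genes were named beside them, some after their values were seen. Count intervals are exact and conditional on the sum (SciPy 1.17.1). Alternatives were DESeq2 1.42.0, other pseudocounts, filters and scalings, limma without trend, a replicate block and leaving out each library. The fits were tested on simulated data. Figures were drawn with matplotlib 3.10.9, and tables read with pandas 2.3.3 in Python 3.11.15.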

Additional observations from a re-analysis of the deposited data

Results flagged for a closer look

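For *Batf3*, each HDAC3-deficient value was under each control value in CD115-CDPs and over each control value in BM pDCs, with differences of mean log2(FPKM + 0.5), HDAC3-deficient minus control, of −2.79 in CD115-CDPs and 3.15 in BM pDCs. *Zbtb46* was singled out for the same reason, with −1.28 in CD115-CDPs and 2.55 in BM pDCs. The values of *Zfp366* were −1.87 in CD115-CDPs and 1.95 in BM pDCs. The difference between cell types was not tested for any of these genes, because each table was normalized separately.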

How the results depend on the processing

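With 2 libraries per group and 3 tables normalized apart, calls rest on the pooled spread of all genes, and leaving out a library leaves a lone sample that is assumed to vary like the other group. Among members called in LMPPs, the main 1 became 0 with no filter and 0 with quantile normalization, and ranged from 0 to 2 with 1 library left out, while the genes called (2576) became 501 and 1651 and ranged from 1167 to 3932. In CD115-CDPs the members called (0) ranged from 0 to 3 and the genes called (0) from 0 to 5111 with 1 library left out, the count of genes being 1395 without HDAC3-deficient library 2 and 5111 without HDAC3-deficient library 1, and quantile normalization called 2 genes. In BM pDCs the members called (5) ranged from 3 to 5 and the genes called (5611) from 2750 to 7005. Without control library 1 the genes called were 1591 in LMPPs and 2926 in BM pDCs, and without control library 2 they were 1167 and 2750. The cause was not tested, other than the fewer samples of these fits.

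The replicate numbers are not stated to pair libraries. Deviations of same-numbered libraries correlated at −0.10 in LMPPs, 0.24 in CD115-CDPs and −0.24 in BM pDCs. The replicate block called 2 members (*Batf3*, adjusted p = 4.87e-04, and *Nfil3*, adjusted p = 0.0225) and 393 genes in CD115-CDPs, against 0 and 0 without it, and 2548 genes in LMPPs and 5061 in BM pDCs, and it changed no other member's call. Crossing the numbers, an alternative chosen after seeing the data, called 3510 genes in LMPPs and 5694 in BM pDCs. The gene-list medians and the overlap count of CD115-CDPs without HDAC3-deficient library 2 were also chosen after seeing the data.

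Signs turned only for changes near 0. *Batf* was 0.028 in LMPPs with median-ratio rescaling, 0.003 in BM pDCs with DESeq2 and 0.012 with relative log expression factors, and it ranged from −0.441 to 0.085 in CD115-CDPs and from −0.074 to 0.081 in BM pDCs with 1 library left out. *Nfil3* ranged from −0.111 to 0.531 in LMPPs. *Batf3*, *Zbtb46* and *Zfp366* kept their direction and their call in BM pDCs under all 11 alternatives. In BM pDCs, 58 of the 66 values over the 6 tested members kept direction and side of the threshold, 4 lost the call and 4 turned. The most similar gene changed with Spearman's measure for all 7 members, and for *Batf3* it became *Aif1*, the second by Pearson's.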
